A study of Mus musculus with 5 samples.

Results

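The promoters of the olfactory and vomeronasal receptor genes were examined as a class in Pcgf6 ChIP-seq data from mouse embryonic stem cells (ESCs). The class was defined by name: every protein-coding gene of the mm9 gene annotation whose symbol begins with Olfr, Vmn1r or Vmn2r, taken from 2 kb upstream to 2 kb downstream of its annotated transcription start site (TSS). It held 1441 of the 22359 annotated protein-coding promoters, of which 1113 belonged to Olfr, 203 to Vmn1r and 125 to Vmn2r genes. Olfr genes encode the odorant receptors of the main olfactory epithelium, and Vmn1r and Vmn2r genes encode the pheromone receptors of the vomeronasal organ. All are G protein-coupled receptors, they lie in clusters along the chromosomes, and each mature sensory neuron transcribes a single odorant receptor gene from a single allele. Outside sensory neurons, and in ESCs, the class is regarded as silent. Pcgf6 is the Pcgf subunit of a variant Polycomb complex, PRC1.6, which also contains the DNA-binding proteins MGA, MAX and E2F6 and is known in ESCs for its binding to CpG-rich promoters of germline genes. Receptor promoters carry few CpG dinucleotides, so they show what this ChIP-seq measures at promoters far from that type.

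CCE cells, an ESC line grown with LIF and carrying no stated genetic change, were fixed with 2 cross-linkers in turn, disuccinimidyl glutarate and then paraformaldehyde. All libraries came from this untreated line. Pcgf6 was pulled down with a Santa Cruz antibody (2 replicates) or an Abcam antibody (2 replicates), and 1 Input library without antibody served both. The files hold the depth of reads extended to 300 bp, from which fragments were recovered. The Input held 22801612 fragments and the 4 ChIP libraries between 2289617 and 2849861. Of the fragment positions of replicate 1, 88.5% with Santa Cruz and 88.8% with Abcam recurred in replicate 2 at a fixed shift of 1 or 15 positions, so the replicates of an antibody were joined into 1 library in which a shared fragment counts once (2546675 fragments with Santa Cruz, 3139725 with Abcam). No replicate error can be given for this reason. The tests below compare the fragments of 2 libraries, and the 95% intervals (exact Clopper-Pearson, or on the log scale where 2 ratios were divided) cover counting error only. Expression was not measured in these files, so neither the cell type nor the silence of the receptor genes could be checked from them.

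The 250 bases before the TSS are shown for 5 receptor genes and for Ddx4. The composition of the class can thus be read directly against the promoter outside it that earlier results of these data placed highest. They were read from the NCBIM37 genome on the strand of the gene, and capitals mark each CG dinucleotide. Olfr744 and Vmn2r89 are 2 of the 3 receptor promoters past the threshold with 1 antibody, Olfr151 responds to acetophenone, Olfr2 responds to octanal, and Olfr78 responds to short-chain fatty acids and is also expressed in kidney and carotid body. Ddx4 encodes the germ cell RNA helicase Vasa.
Olfr744 (chr14:51237586-51237835, plus strand): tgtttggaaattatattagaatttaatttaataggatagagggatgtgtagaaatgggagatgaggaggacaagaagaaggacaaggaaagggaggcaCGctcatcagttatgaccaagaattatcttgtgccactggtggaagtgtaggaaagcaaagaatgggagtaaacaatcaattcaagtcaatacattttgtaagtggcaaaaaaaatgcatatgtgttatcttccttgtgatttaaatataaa
Vmn2r89 (chr14:52071387-52071636, plus strand): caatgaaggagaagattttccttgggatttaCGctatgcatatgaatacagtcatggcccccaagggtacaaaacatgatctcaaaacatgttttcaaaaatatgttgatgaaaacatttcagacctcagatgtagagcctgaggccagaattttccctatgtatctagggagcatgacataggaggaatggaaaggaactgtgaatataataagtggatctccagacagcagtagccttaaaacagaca
Olfr151 (chr9:37538647-37538896, minus strand): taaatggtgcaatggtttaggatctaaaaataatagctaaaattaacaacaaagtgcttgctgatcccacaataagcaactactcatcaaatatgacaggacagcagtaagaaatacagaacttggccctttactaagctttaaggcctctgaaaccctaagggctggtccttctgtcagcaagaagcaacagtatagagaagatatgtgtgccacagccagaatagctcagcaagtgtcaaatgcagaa
Olfr2 (chr7:114146120-114146369, minus strand): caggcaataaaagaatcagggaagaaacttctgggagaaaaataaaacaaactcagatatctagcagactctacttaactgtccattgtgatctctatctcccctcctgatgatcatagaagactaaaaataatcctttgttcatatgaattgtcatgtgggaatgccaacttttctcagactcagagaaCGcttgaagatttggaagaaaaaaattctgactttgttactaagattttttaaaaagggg
Olfr78 (chr7:109907986-109908235, minus strand): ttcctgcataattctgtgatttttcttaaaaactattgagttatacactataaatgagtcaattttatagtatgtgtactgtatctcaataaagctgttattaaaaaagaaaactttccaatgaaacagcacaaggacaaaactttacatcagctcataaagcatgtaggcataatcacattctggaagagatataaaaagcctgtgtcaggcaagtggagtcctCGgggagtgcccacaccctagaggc
Ddx4 (chr13:113442519-113442768, minus strand): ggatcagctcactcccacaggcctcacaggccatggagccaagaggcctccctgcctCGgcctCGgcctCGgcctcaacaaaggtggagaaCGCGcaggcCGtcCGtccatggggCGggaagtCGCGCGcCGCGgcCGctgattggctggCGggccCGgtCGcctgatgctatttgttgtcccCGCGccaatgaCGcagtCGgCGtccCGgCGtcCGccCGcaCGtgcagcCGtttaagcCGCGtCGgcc
The 5 receptor sequences held 0 or 1 CG dinucleotide each, and that of Ddx4 held 31. GC content ran from 34.8% (Olfr744) to 40% (Olfr151) in the receptors, against 70.4% for Ddx4. Within 500 bp upstream, Ddx4 held both CACGTG, the E-box letters bound by MAX with its partners, and GCGGGA, the core of an E2F site.

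The same contrast held across the class. Median GC content within 2 kb of the TSS was 36.7% for Olfr, 37.7% for Vmn1r and 34.2% for Vmn2r promoters, against 48.4% for the 20918 other promoters. The ratio of observed to expected CpG within 500 bp had a median of 0.136, 0.108 and 0.1 in the 3 families and of 0.587 in the others. With CpG-poor set as a ratio under 0.48, 1438 of the 1441 receptor promoters were CpG-poor (99.8%), against 8733 of the other promoters (41.7%). In the 500 bp upstream, searched on both strands, CACGTG was present at 3.26% of receptor and 10.6% of other promoters, and GCGGGA at 0.694% against 28.4%. The families differed in CACGTG, at 2.79% of Olfr and 0.493% of Vmn1r promoters. At 12%, Vmn2r promoters lay slightly above the other promoters. TAATTA, the core bound by homeodomain proteins such as Lhx2 and Emx2, was present at 32.3% of receptor and 8.88% of other promoters. Its letters are A and T only, and the receptor promoters were more AT-rich. How far base composition sets these shares was not tested. CCCNNGGG, the palindrome bound by Ebf proteins without its outer bases, was present at 4.22% of Olfr, 2.46% of Vmn1r and 28% of Vmn2r promoters and at 21.2% of the others. A match to these letters describes the sequence and is not a measured site.

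The annotation limits what "promoter" means for this class. The annotated TSS coincided with the start of the coding sequence in 879 of the 1441 genes (61%), against 9.13% of other genes, so that for most receptors the 5' leader and the true start are missing from the gene model. Receptor genes were also compact: 84.7% of Olfr and 92.6% of Vmn1r gene models had a single exon, and no Vmn2r model did. The 2 kb downstream of the TSS therefore contains the whole coding exon of most Olfr and Vmn1r genes.

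Read depth was low at receptor promoters in every library and lower in the Input than in the ChIP libraries. Relative to the mean depth of each library over the assembled genome, Input depth at the class was 0.458. It was 0.602 and 0.584 in the Santa Cruz replicates and 0.571 and 0.567 in the Abcam replicates. All 4 ChIP files thus lay above the Input, with ratios of 1.31 and 1.28 for Santa Cruz and 1.25 and 1.24 for Abcam. The 2 files of an antibody share most fragments and are not separate evidence. The families were ordered in the same way in all 5 libraries. Olfr promoters had a relative depth of 0.525 in the Input and from 0.637 to 0.670 in the ChIP files. Vmn1r promoters had 0.279 in the Input and from 0.390 to 0.426 in the ChIP files. Vmn2r promoters had 0.157 in the Input and from 0.234 to 0.285 in the ChIP files. Other promoters did not share this order. CpG-poor promoters outside the class had 1.47 in the Input and from 1.31 to 1.34 in the ChIP files, and CpG-rich ones had 2.3 in the Input and from 2.2 to 2.36 in the ChIP files. The plot of depth by family shows these values.

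**Figure D1:**
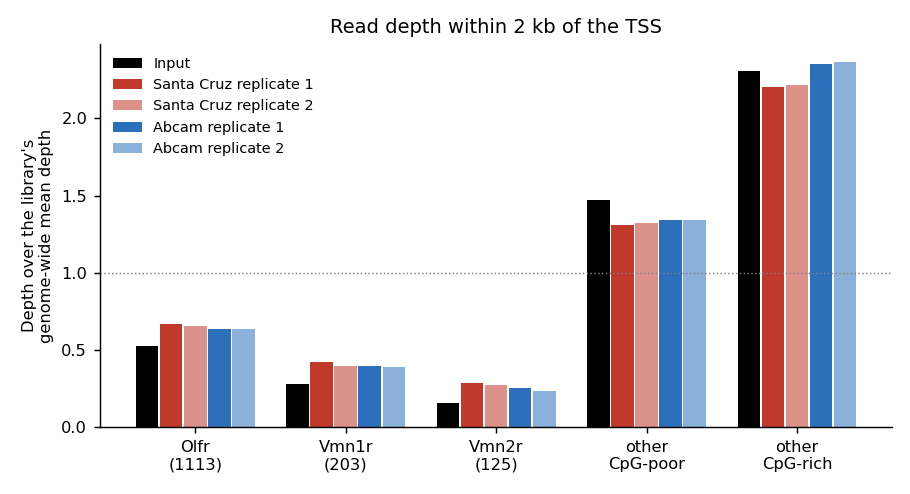
Read depth within 2 kb of the TSS in the 5 libraries, divided by the genome-wide mean depth of the same library (1, dotted line), for Olfr, Vmn1r and Vmn2r promoters and for other CpG-poor and CpG-rich promoters. Each bar is 1 library; the receptor families lie below 1 in every library, with the Input bar lowest, and in the other CpG-poor promoters the Input bar is highest.

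Counted as fragments, the class again exceeded the Input with both antibodies. The 1441 windows covered 5755796 bases and held 23141 Input, 3483 Santa Cruz and 4111 Abcam fragments. The ChIP/Input ratio, scaled by library totals, was 1.32 with Santa Cruz (95% interval 1.27 to 1.36) and 1.26 with Abcam (1.22 to 1.3). All other promoters together had 0.930 (Santa Cruz) and 0.980 (Abcam), and over the other CpG-poor promoters 0.895 and 0.913. The receptor ratio was 1.47 times that of the other CpG-poor promoters with Santa Cruz (1.42 to 1.53) and 1.38 times with Abcam (1.33 to 1.43). Those promoters were less AT-rich, with a median GC content of 45.6% against 36.7% for the receptors. The order of promoters with like GC content changed between bins. At 32 to 34% GC, 70 promoters outside the class had 2.03 (1.67 to 2.46) and 1.87 (1.55 to 2.25). The receptors had 1.87 (1.66 to 2.10) and 1.65 (1.47 to 1.85) there, with overlapping intervals. At 38 to 40% GC, 674 promoters outside the class had 1.22 (1.16 to 1.27) and 1.20 (1.15 to 1.25). The receptors of that bin had 1.42 (1.31 to 1.55) and 1.42 (1.32 to 1.54). Among the families, Olfr had 1.27 with Santa Cruz (1.22 to 1.32) and 1.23 with Abcam (1.18 to 1.27). Vmn1r had 1.56 (1.39 to 1.75) and 1.47 (1.32 to 1.63), and Vmn2r had 1.87 (1.56 to 2.24) and 1.63 (1.36 to 1.94). Single replicates gave lower ratios than the joined libraries in the class and in each family. Both vomeronasal families exceeded Olfr, with Vmn1r 1.23 times higher (1.09 to 1.38) with Santa Cruz and 1.20 times (1.07 to 1.34) with Abcam, and Vmn2r 1.47 times (1.23 to 1.76) and 1.33 times (1.12 to 1.59). Vmn2r and Vmn1r were not told apart at this depth, with a quotient of 1.20 for Santa Cruz (0.971 to 1.48) and 1.11 for Abcam (0.908 to 1.36).

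Single promoters held few fragments. The median was 12 in the Input over the class (14 in Olfr, 8 in Vmn1r and 4 in Vmn2r, against 71 in other promoters), and 2 with either antibody. No Input fragment fell in 92 receptor windows, 53 of them Vmn1r and 31 Vmn2r, and no ChIP fragment fell in 282 windows with Santa Cruz (19.6%) and 251 with Abcam (17.4%). Where an Input fragment was present, single promoters had a median ratio of 1.29 (Santa Cruz) and 1.25 (Abcam). Of these 1349 promoters, 839 (62.2%) and 859 (63.7%) lay above 1, against 39.5% and 43.4% of the other promoters. The ratio moved with the Input count itself. It was 3.16 with Santa Cruz and 2.80 with Abcam over the 263 receptor promoters with 0 to 4 Input fragments, 1.64 and 1.52 over the 778 with 5 to 19, and 1.05 (0.996 to 1.1) and 1.04 (0.993 to 1.09) over the 400 with 20 or more. Other promoters split in the same way gave 3.07 and 2.78, then 1.56 and 1.49, then 0.923 and 0.973. Since this split is made on the denominator of the ratio, part of the fall follows from its construction, and in the 400 better covered promoters taken alone both intervals held 1.

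Over the class, which Olfr genes dominate, the excess was not centred on the TSS. The ratio within 500 bp was 0.943 of that at 3 to 5 kb with Santa Cruz (0.873 to 1.02) and 0.929 with Abcam (0.864 to 0.999). For Vmn1r this quotient was 1.07 (0.815 to 1.39) and 1.18 (0.922 to 1.5), and for Vmn2r 1.16 (0.789 to 1.71) and 1.33 (0.925 to 1.92), above 1 with wide intervals that held 1. Within 1 kb of the TSS the Vmn2r ratio was 2.17 (1.68 to 2.76) and 1.82 (1.42 to 2.31). In 100-bp bins along the sense strand, Input depth at receptor genes lay between 0.363 and 0.504 of the genome mean upstream, rose at the TSS and reached its highest value, 0.735, between 400 and 500 bp downstream. It then fell to its lowest value, 0.350, between 1100 and 1200 bp. GC content took the same path, from 35.7% in the last 100 bp before the TSS to 42.4% in the first 100 bp after it, and back to 36.3% between 900 and 1000 bp. That stretch is the coding exon of most Olfr and Vmn1r genes. The ChIP libraries rose there as well, but by less, so that the ratio to Input was lowest where the depth was highest, at 1.03 and 0.973 in the Santa Cruz replicates (400 to 500 bp) and 0.886 and 0.855 in the Abcam replicates (300 to 400 bp). The profile around the TSS shows the rise in all 5 libraries and the dip of the ratio.

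**Figure D2:**
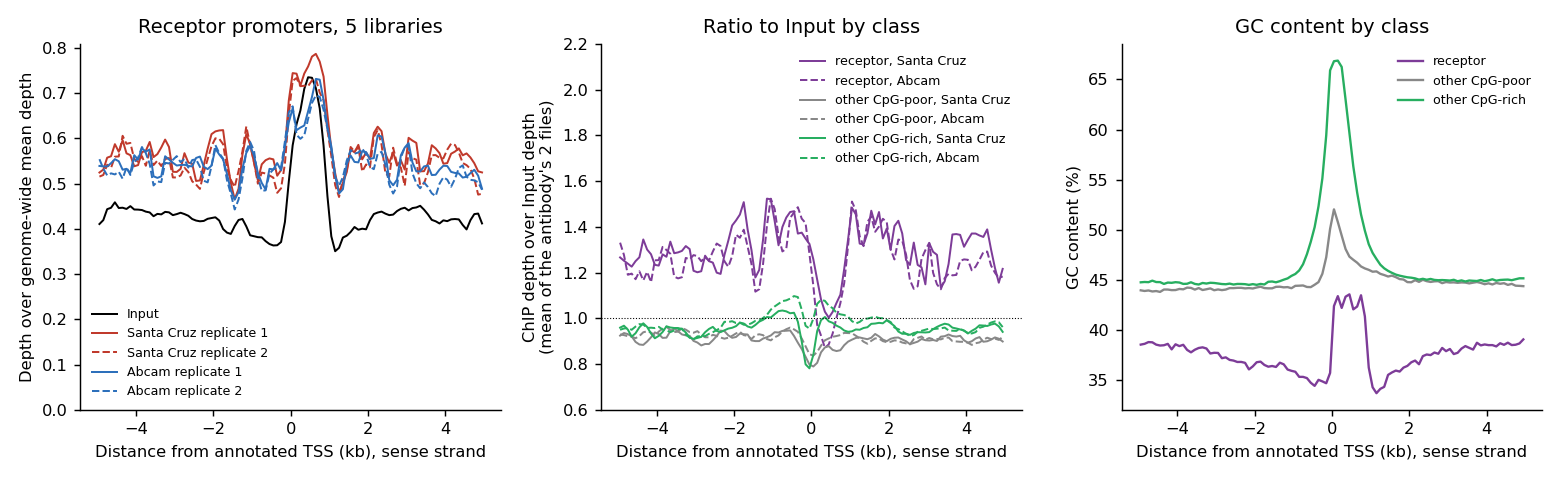
Profiles in 100-bp bins within 5 kb of the annotated TSS on the sense strand. Left, depth over the genome-wide mean depth of each library at the 1441 receptor promoters; middle, ChIP depth over Input depth for receptor, other CpG-poor and other CpG-rich promoters, as the mean of the 2 files of each antibody; right, GC content. The Input rises to 0.735 in the first kilobase downstream, the receptor ratio dips there to about 1, and GC content steps up over the same bases.

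Fragments gave the same picture. In the 1 kb upstream of the TSS the receptor promoters held 3.38 Input fragments each and in the 1 kb downstream 5.78. The ratio was 1.42 upstream with both antibodies (1.32 to 1.53 for Santa Cruz, 1.33 to 1.52 for Abcam), and downstream 1.13 with Santa Cruz (1.06 to 1.20) and 1.01 with Abcam (0.951 to 1.07). The downstream ratio was 0.793 of the upstream one with Santa Cruz (0.719 to 0.875) and 0.711 with Abcam (0.649 to 0.779). In the 742 single-exon genes whose annotated TSS is the coding start the quotients were 0.712 and 0.703, and there the TSS is the edge of the coding exon. Olfr genes showed it (0.764 and 0.685). In Vmn1r genes the quotient was 1.04 for Santa Cruz (0.751 to 1.45) and 1.05 for Abcam (0.768 to 1.44), and in Vmn2r genes 1.60 (0.986 to 2.59) and 1.07 (0.659 to 1.74), which the few fragments of these families leave undecided. Over the other promoters the quotient was 0.996 and 0.994.

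The surroundings of the receptor genes exceeded the Input too. From 5 to 50 kb of the same TSSs, leaving out the 5 kb next to every receptor TSS, the ratio was 1.23 with Santa Cruz (1.21 to 1.25) and 1.17 with Abcam (1.16 to 1.19). The promoters stood 1.07 times above this flank with either antibody (1.03 to 1.11 for both). By family, the promoter exceeded the flank 1.09 and 1.08 times in Olfr, 1.20 and 1.22 times in Vmn1r, and 1.23 (1.02 to 1.47) and 1.14 (0.957 to 1.36) times in Vmn2r.

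The receptor genes fell into 46 clusters of at least 5 genes with neighbouring TSSs no more than 500 kb apart, which together held 1385 of the genes. The median ratio of the clusters was 1.35 with Santa Cruz and 1.26 with Abcam (SD over clusters 0.572 and 0.589). The interval of 21 clusters with Santa Cruz and 20 with Abcam lay above 1, and that of none lay below 1 with either antibody. The sequence between the promoters of a cluster gave similar values, with a median of 1.34 and 1.26 and 36 and 34 clusters whose interval lay above 1. With Santa Cruz the interval of 1 such stretch lay below 1, between Olfr288 and Olfr279 on chromosome 15 (0.877, 0.774 to 0.99). The largest cluster, 221 Olfr genes from Olfr987 to Olfr1272 on chr2:85177452-90124730, had a promoter ratio of 1.59 and 1.42, and 1.40 and 1.33 between promoters. The next, 129 Olfr genes from Olfr543 to Olfr692 on chr7:109624416-112518744, is the home of the class I receptors, which resemble the odorant receptors of fish. The ratio of its promoters was 1.12 for either antibody (0.998 to 1.24 for Santa Cruz, 1.01 to 1.24 for Abcam). The other 984 Olfr promoters had 1.3 and 1.24. Median GC content was 38.0% in this cluster and 36.4% in the other Olfr promoters. The ratios predicted from GC content, given below, were nearly the same for both groups.

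Some vomeronasal clusters could hardly be measured. The 64 Vmn1r genes from Vmn1r91 to Vmn1r183 on chr7:20684507-24841793 had 83 Input fragments in all, a depth of 0.0377 of the genome mean. The 8 Vmn2r genes from Vmn2r29 to Vmn2r36 on chr7:7198039-7857173 had 1 Input fragment and none with either antibody. Genes of such clusters are close copies of each other, and how the reads that fit several copies were treated is not given in the sources used here. The highest cluster ratio, 4.01 with Santa Cruz (1.77 to 8.49) and 3.84 with Abcam, belonged to the 8 Vmn2r genes from Vmn2r111 to Vmn2r117 on chr17:22708240-23618564 and rested on 24 Input, 11 Santa Cruz and 13 Abcam fragments. Vmn2r116, the receptor of the male tear pheromone ESP1, is among them.

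The ratio of the receptor promoters followed GC content. Over the promoters with 32 to 34% GC it was 1.87 with Santa Cruz (1.66 to 2.10) and 1.65 with Abcam (1.47 to 1.85). At 36 to 38% it was 1.43 and 1.32, at 40 to 42% it was 1.15 and 1.20, and at 46 to 48% it was 0.871 and 0.886. The same course was found in windows of 4001 bp that tiled the genome away from the receptor promoters. There the ratio fell from 1.74 with Santa Cruz and 1.72 with Abcam at 32 to 33% GC to 0.872 and 0.878 at 46 to 47%. In 10 of the 11 GC bins, with either antibody, the interval of the receptor promoters held the value of the genome windows at the same GC content. The exception was 38 to 40% GC, where the receptors had 1.42 with both antibodies and the genome windows 1.25 and 1.24. The plot of the ratio against GC content shows both courses.

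**Figure D3:**
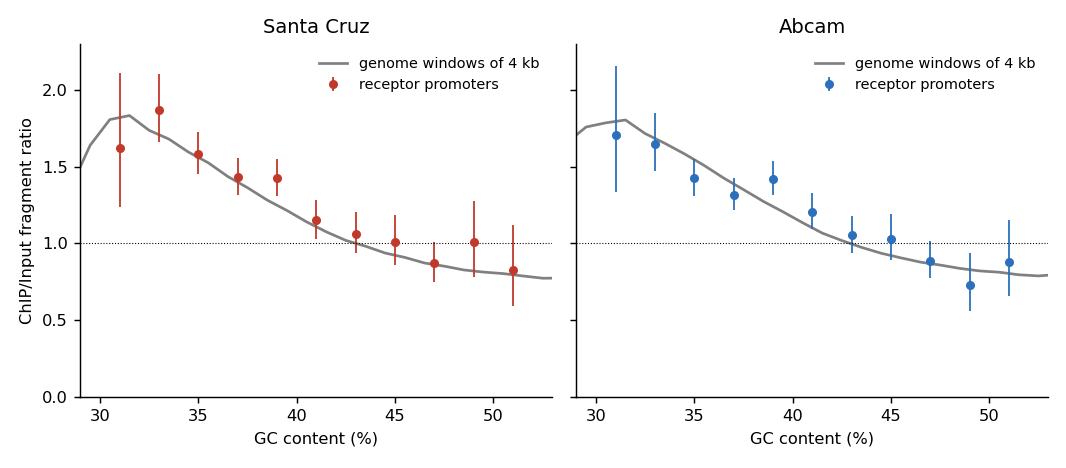
ChIP/Input fragment ratio against GC content for receptor promoters in bins of 2 percentage points (points, with 95% counting intervals) and for 4-kb genome windows outside them (grey line), with the Santa Cruz antibody on the left and the Abcam antibody on the right. Receptor promoters follow the grey line from 1.87 and 1.65 at 32 to 34% GC to 0.871 and 0.886 at 46 to 48%; the bin at 38 to 40% lies above it.

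Summed over the class, genome windows with the GC content of the receptor promoters predicted a ratio of 1.24 with Santa Cruz and 1.23 with Abcam. The observed ratio was 1.06 times this value with Santa Cruz (1.02 to 1.1) and 1.02 times with Abcam (0.987 to 1.06). For Olfr the quotient was 1.04 (0.998 to 1.08) and 1.01 (0.971 to 1.04), for Vmn1r 1.17 (1.04 to 1.31) and 1.11 (0.994 to 1.23), and for Vmn2r 1.3 (1.08 to 1.55) and 1.14 (0.954 to 1.36). With Santa Cruz the intervals of the class and of both vomeronasal families lay above 1, and with Abcam none did. For the class I cluster the genome windows predicted 1.22 (Santa Cruz) and 1.21 (Abcam), and for the other Olfr promoters 1.23 and 1.22. The quotient was 0.913 (0.817 to 1.02) and 0.924 (0.835 to 1.02) for the class I cluster. For the other Olfr promoters it was 1.06 (1.01 to 1.1) and 1.02 (0.981 to 1.06). Among the 45 clusters with at least 20 Input fragments the median quotient was 1.08 and 1.02. The interval of 4 of them lay above 1 with Santa Cruz and of 3 with Abcam, with the 8 Vmn2r genes around Vmn2r116 the single cluster above 1 with both (2.67 and 2.58). This comparison with genome windows was added after the data had been seen.

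**Figure D4:**
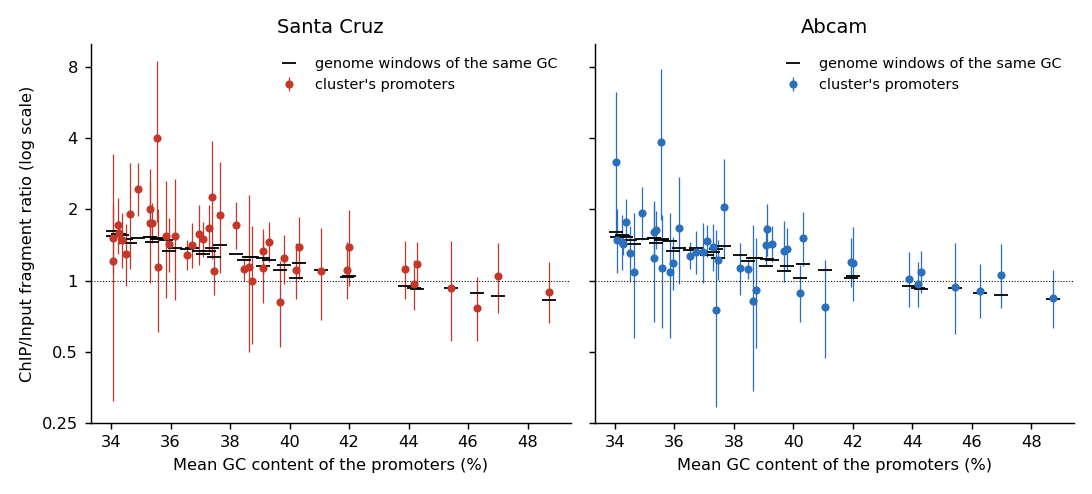
ChIP/Input ratio (log scale) of the promoters of each of 45 receptor clusters against their mean GC content, with 95% counting intervals, for Santa Cruz (left) and Abcam (right). Black dashes mark the ratio of genome windows of the same GC content; most intervals cross their dash, and the intervals of the 6 clusters above 44% GC all reach below 1.

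Other promoters of like GC content gave a less stable reference. Against them the class stood at 0.800 with Santa Cruz (0.772 to 0.829) and 0.798 with Abcam (0.772 to 0.825). Their bin at 34 to 36% GC had a summed ratio of 3.57 with Santa Cruz but a median of 1.43, close to the receptors (1.59 summed, 1.59 median). In that bin the 10 of 161 promoters with most Santa Cruz fragments held 77.9% of these and 48.0% of the Input fragments. Without them its ratio was 1.52, a fall that partly follows from picking them by that count. Binned by CpG content instead, the class stood at 1.43 and 1.37 times the other promoters, the opposite direction. The part of base composition in the excess over the Input was not tested beyond these values.

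At single promoters, hardly any receptor gene passed the test against the Input. With Santa Cruz, 3 of the 1441 receptor promoters (0.208%) had an adjusted p under 0.05 for a higher count (one-sided exact binomial test, Benjamini-Hochberg over 22359 promoters), against 0.59% of all promoters. With Abcam, 0 did, against 1.02% of all promoters. At an unadjusted p under 0.05, 113 receptor promoters (7.84%) were higher with Santa Cruz and 111 (7.70%) with Abcam, against 4.86% and 6.14% of all promoters. In the lower direction 0 receptor promoters passed with either antibody, as did 0% of all promoters in both comparisons. Unadjusted, 6 receptor promoters (0.416%) were lower with Santa Cruz and 17 (1.18%) with Abcam, against 6.06% and 5.60% of all promoters. A ratio of 1 at the receptor median of 12 Input fragments gives only 1.37 Santa Cruz or 1.69 Abcam fragments. A fall could thus hardly be seen at a typical receptor promoter, and the low share does not measure it. At the median of 12 Input fragments, 9 Santa Cruz fragments (a ratio of 6.55) or 10 Abcam fragments (5.91) would have been needed for a call, against 22 and 24 fragments (2.71 and 2.40) at the median of the other promoters. A rise below about 6-fold was thus not detectable at a typical receptor promoter.

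The 3 promoters past the threshold had it from Santa Cruz only. Olfr744 (TSS at position 51237836 of chromosome 14) had 10 Santa Cruz, 1 Abcam and 11 Input fragments, a Santa Cruz ratio of 7.94 (3.02 to 20.6, adjusted p = 0.00439 by the exact binomial test). Its relative depth was 0.315 in the Input, 1.40 and 2.50 in the Santa Cruz replicates and 0.232 and 0.224 in the Abcam replicates. Both Santa Cruz files stood above the Input and both Abcam files below it, though the files of an antibody share most fragments. Olfr1461 (TSS at 13239506 of chromosome 19) had 9 Santa Cruz, 1 Abcam and 6 Input fragments, a ratio of 13.1 (4.17 to 44.8, adjusted p = 0.00115 by the exact binomial test). Its relative depth was 0.180 in the Input, 2.24 and 2.50 with Santa Cruz and 0.291 and 0.281 with Abcam. Vmn2r89 (TSS at 52071637 of chromosome 14), a V2R-type receptor gene, had 7 Santa Cruz, 3 Abcam and 7 Input fragments, a ratio of 8.74 (2.62 to 29.2, adjusted p = 0.0378 by the exact binomial test). With Abcam its ratio was 3.04 (0.507 to 13.3). None of the 3 passed the test between the antibodies, in which 0 receptor promoters and 0.00894% of all promoters had an adjusted p under 0.05, while 26 receptor promoters (1.80%) and 3.41% of all promoters had an unadjusted p under 0.05. With the first Santa Cruz replicate left out, Olfr744 and Olfr1461 were called, and with the second left out Olfr1461 alone. Without replicate 1 of Abcam 1 promoter was called with that antibody (Olfr849), and without replicate 2 there were 2 (Olfr382 and Olfr849). As the replicates share most fragments, these are not independent repeats.

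The widest ratios among promoters with 20 or more Input fragments rested on a handful of fragments as well. Over both antibodies together the 3 highest were Olfr266, Olfr148 and Vmn1r210. Olfr266 had 11 Santa Cruz, 5 Abcam and 25 Input fragments, with ratios of 3.84 (1.71 to 8.10) and 1.42 (0.424 to 3.77). Olfr148 had the reverse, with 3 and 9 fragments over 20 in the Input and ratios of 1.31 and 3.19 (1.28 to 7.33). Vmn1r210 had 5 and 7 over 20, with 2.18 (0.641 to 6.0) and 2.48 (0.886 to 6.11). The 3 lowest were Olfr1408 (0 and 1 fragments over 23), Olfr403 (2 and 0 over 31) and Olfr1045 (1 and 0 over 20). None of these 6 had an adjusted p under 0.05 by the exact binomial test. A ratio of at least 2 with both antibodies was reached by 2 of the 400 receptor promoters with 20 or more Input fragments (0.5%), Vmn1r210 and Olfr1328, against 1.27% of all promoters of that depth. Single antibodies gave the opposite order, with 35 (8.75%, Santa Cruz) and 27 (6.75%, Abcam) of the 400 at 2 or above, against 3.10% and 3.27% of the other promoters of that depth. The median of those other promoters was 75 Input fragments and that of the 400 was 30.

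Receptors that are known by their ligand or serve as models in the field had ratios near those of the class. Of 15 listed, 14 were in the annotation under these names, and 0 were called with either antibody. Over all promoters 0.59% (Santa Cruz) and 1.02% (Abcam) were called higher, and a list of this size cannot be told apart from these shares. Their summed ratio was 1.36 with Santa Cruz (0.973 to 1.86) and 1.20 with Abcam (0.869 to 1.62), and their medians were 1.28 and 1.37. Olfr1507 had the largest Santa Cruz ratio, 4.71 (1.59 to 12.7, adjusted p = 0.261 by the exact binomial test), from 7 fragments over 13 in the Input, and 1.09 with Abcam. Its relative depth was 0.378 in the Input, 1.96 and 1.67 in the Santa Cruz replicates and 0.232 and 0.224 in the Abcam replicates. Olfr78 lay above the Input in all 4 ChIP files, with a relative depth of 0.948 in the Input, 1.68 and 1.39 with Santa Cruz and 1.39 and 1.83 with Abcam. Its ratios were 1.75 (0.655 to 3.99) and 1.62 (0.649 to 3.55), which the counting error does not separate from 1. Olfr2 and Olfr17 went opposite ways with the antibodies. Olfr2 had 6 Santa Cruz and 1 Abcam fragments over 40 in the Input, and Olfr17 had 1 and 7 over 30. Olfr16, the receptor for lyral that is also found in testis, had 5 and 2 over 31. Olfr73, the eugenol receptor, had 1 and 2 over 11, Olfr1440, a receptor for muscone, had 2 and 6 over 21, and Olfr151 had 2 and 5 over 14. Olfr1019, a receptor for the fox odour component TMT, had 2 and 3 over 16. Vmn2r1, of the V2R family that most basal vomeronasal neurons share, had 4 and 2 over 24, and Vmn2r116 had 2 and 1 over 5. Vmn2r26, which detects peptides, had 0 and 2 over 3. Vmn1r85 and Vmn1r89, which respond to sulfated steroids, had 2 and 4 over 34 and 5 and 5 over 19.

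Ddx4 marks the upper end of the scale in the same libraries and is not a typical promoter. It was chosen because earlier results of these data placed it highest, so its distance from the receptors follows from that choice. Ddx4 had 33 Santa Cruz and 45 Abcam fragments over 32 in the Input, with ratios of 9.01 (5.37 to 15.1) and 9.97 (6.20 to 16.2). These are the highest values among the 18768 other promoters with 20 or more Input fragments. Its relative depth was 0.897 in the Input, between those of Olfr16 (0.869) and Olfr78 (0.948), and 8.94, 9.18, 9.26 and 9.43 in the 4 ChIP files. The 4 files lay close together there, but the 2 files of an antibody share most fragments, so this compares 2 libraries. Among the receptors of the plot of named genes, Olfr78, Olfr1019, Olfr1461, Vmn1r89, Vmn2r89 and Vmn2r116 also lay above the Input in all 4 files but at most at 2.50 (Olfr1461). Vmn1r85 lay below it in all 4, while Olfr2, Olfr16, Olfr17, Olfr744 and Olfr1507 had files on both sides of the Input.

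**Figure D5:**
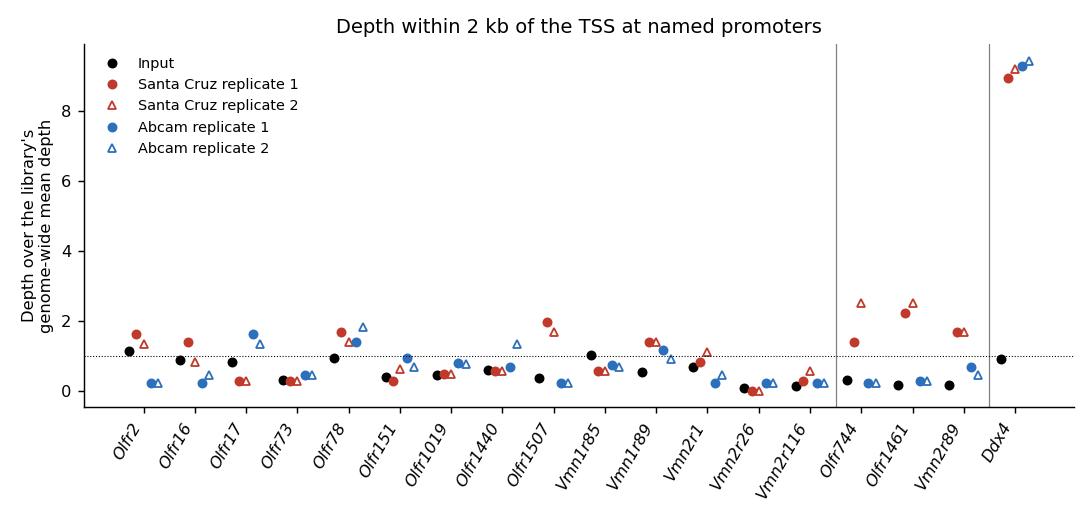
Depth within 2 kb of the TSS over the genome-wide mean depth of each library, for 14 model receptors, the 3 receptor promoters past the threshold with Santa Cruz (Olfr744, Olfr1461 and Vmn2r89) and Ddx4. Each symbol is 1 library; the receptor promoters stay at or below 2.50 in all 5 libraries, while Ddx4 lies between 8.94 and 9.43 in the 4 ChIP libraries.

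The study's own table of Pcgf6 target genes names 15 receptor genes in its antibody columns, of which 13 matched a promoter here. The table was made from these libraries and is not independent evidence. The study called peaks with MACS at a p-value cutoff and assigned those within 10 kb of a TSS. Here fragments were counted over whole windows and p-values adjusted over all promoters. Measure and threshold differ, so the calls below are no check of the table. Within 2 kb of the TSS, 0 of the 13 were called with either antibody, near the 0.59% (Santa Cruz) and 1.02% (Abcam) of all promoters. The summed ratio was 1.15 with Santa Cruz (0.811 to 1.59) and 1.26 with Abcam (0.935 to 1.68), and 8 promoters lay above 1 with each. Olfr98 had the largest Santa Cruz ratio, from 7 Santa Cruz and 4 Abcam fragments over 13 in the Input, with ratios of 4.71 (1.59 to 12.7) and 2.18 (0.518 to 7.06). Olfr20 and Olfr1420, which both antibody columns name, had ratios of 1.75 and 2.48 and of 1.34 and 2.18. Olfr412, Olfr520 and Olfr1394, with 50 to 64 Input fragments, had ratios from 0.524 to 1.14. Olfr247 had no fragment in any library. With 10 kb on each side of the TSS, the promoter window of the study, 1 of the 13 was called with Abcam (0.698% of all promoters) and 0 with Santa Cruz (0.362% of all promoters). It was Olfr98, with 38 Abcam and 24 Santa Cruz fragments over 103 in the Input and ratios of 2.61 (1.75 to 3.83, adjusted p = 0.0010 by the exact binomial test) and 2.04 (1.25 to 3.20, adjusted p = 0.213 by the same test). Olfr98 was also called with Santa Cruz when every deposited fragment was counted (adjusted p = 0.0497 by the exact binomial test).

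Genes that act with the receptors showed no excess over the Input as a group. The list held 28 genes of odour transduction (Gnal, Adcy3, Cnga2, Ano2 and others), receptor trafficking (Rtp1, Rtp2, Reep1), vomeronasal transduction (Trpc2, Gnai2, Gnao1, Gng8) and the control of receptor choice (Lhx2, Ldb1, Ebf1, Emx2, Kdm1a and others). Their median GC content was 52.9%, and 0 of 28 were called in either direction with either antibody. This is near the shares over all promoters, 0.59% (Santa Cruz) and 1.02% (Abcam) higher and 0% lower. The summed ratio was 0.879 with Santa Cruz (0.767 to 1.0) and 0.880 with Abcam (0.777 to 0.994), with 7 and 8 promoters above 1. Genome windows at 52 to 53% GC had 0.773 and 0.788. These lie below the list's ratios but within their intervals. Gnal, the G protein subunit of olfactory neurons, had the highest, 1.72 (0.871 to 3.15) and 1.72 (0.929 to 3.0). Lhx2, which binds receptor enhancers, had 0.744 and 0.302, and Kdm1a, the histone demethylase needed for receptor choice, had 0.301 and 0.733. Unadjusted, 2 of the 28 (7.14%) were lower with each antibody, near the 6.06% and 5.60% of all promoters, 0 were higher with Santa Cruz and 1 (3.57%) was higher with Abcam, against 4.86% and 6.14%.

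Chemosensory receptor families outside the class were measured in the same way. The 35 bitter taste receptor genes (Tas2r, median GC 36.2%) had a summed ratio of 1.42 with Santa Cruz (1.18 to 1.69) and 1.26 with Abcam (1.06 to 1.5). The 15 trace amine receptor genes (Taar, 40.8%) had 1.1 (0.810 to 1.47) and 1.14 (0.862 to 1.48). The 3 sweet and umami receptor genes (Tas1r, 54.2%) had 0.742 (0.457 to 1.15) and 0.794 (0.521 to 1.17). The 4 formyl peptide receptor-related genes of the vomeronasal organ (Fpr-rs, 36.8%) had 1.29 (0.532 to 2.74) and 0.788 (0.277 to 1.83). None of these 57 promoters was called in either direction with either antibody. This is near the shares over all promoters, 0.59% (Santa Cruz) and 1.02% (Abcam) higher and 0% lower. At an unadjusted p under 0.05 there were 5 higher (8.77%) and 2 lower (3.51%) with Santa Cruz and 5 higher (8.77%) and 1 lower (1.75%) with Abcam. Over all promoters the unadjusted shares were 4.86% and 6.06% with Santa Cruz and 6.14% and 5.60% with Abcam.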

How the data were processed

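Pcgf6 ChIP-seq was analysed from 5 libraries of CCE ESCs. The authors deposited coverage, as a signal in whole numbers for each library on mm9 (NCBIM37): how many reads, lengthened to 300 bp, cover a base. It was neither scaled nor divided by the Input. The submitters' processing notes name Bowtie (0.1.2.7) without a role. The mapping filter and the treatment of duplicate reads and of reads that fit several places are not given in the sources used here.

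Since all reads have the same length, fragments were recovered by pairing each fall of the depth with the oldest open rise (within 2 positions), leaving up to 0.0887% of falls unpaired. A fragment was placed at its middle and counted once per position. Replicates of an antibody held mostly the same fragments (chi-square per degree of freedom over 10 kb windows 0.121 and 0.132, against 1.02 between antibodies) and were joined, allowing 1 position around each shift. Depth behind the ratios was 22254259 Input, 2546675 Santa Cruz and 3139725 Abcam fragments. Class sums count each base of overlapping windows once.

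Promoters came from protein-coding genes of the GENCODE annotation of NCBIM37. GC content was taken within 2 kb and CpG content within 500 bp of the TSS. Each promoter was tested with a 1-sided exact binomial test against the Input, and between antibodies with a 2-sided one, with p-values adjusted after Benjamini and Hochberg over 22359 promoters. Fragment recovery, the class ratio and the promoter test were tested on simulated data. Tools were numba 0.67.0, pandas 2.3.3, scipy 1.17.1 and numpy 2.4.6 under Python 3.11.15. Named genes were those past the threshold, the 3 highest and 3 lowest of at least 20 Input fragments, those in the study's table, listed model receptors, the pathway list and Ddx4. Olfr1328, Olfr849 and Olfr382 were named after their values were seen, because they make up small counts. The members, lists and tests were chosen with earlier results of these data known. Alternatives covered the window, the fragments counted, the scaling, each replicate, the Input minimum, the flank, the cluster gap and the composition reference.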

Additional observations from a re-analysis of the deposited data

How the results depend on the processing

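No paired analysis was possible because the replicates of an antibody hold the same fragments, so that their shared numbers mark no separate samples. Without 1 replicate at a time, the class ratio lay between 1.27 and 1.31 for Santa Cruz and between 1.23 and 1.24 for Abcam, and either antibody had 1 to 2 receptor promoters called higher. The joined libraries gave 1.32 and 1.26, above either replicate alone, and each family did the same. With Santa Cruz, Vmn1r had 1.56 joined against 1.39 and 1.51, and Vmn2r 1.87 against 1.72 and 1.78. With Abcam, Vmn1r had 1.47 against 1.39 and 1.43, and Vmn2r 1.63 against 1.46 and 1.62. With windows of 1 kb the class ratio was 1.23 with Santa Cruz and 1.16 with Abcam, the Olfr ratio 1.18 and 1.12, the depth ratio 1.25 and 1.19 in the Santa Cruz and 1.16 and 1.15 in the Abcam replicates, the Santa Cruz calls were 1 and the 2-fold promoters 0. With 10 kb there were 8 receptor calls with each antibody (0.555%, against 0.362% of all promoters with Santa Cruz and 0.698% with Abcam) and 48 at 2-fold with both (3.67% of those with 20 Input fragments, against 0.629% of all). Counting every deposited fragment, which counts most ChIP fragments double, gave 28 calls higher (1.94%, all promoters 1.71%) and 2 lower (0.139%, 2.09%) with Santa Cruz, 25 higher (1.73%, 2.78%) and 2 lower (0.139%, 1.56%) with Abcam, 5 promoters at 2-fold and 4 that differed between antibodies. Among promoters with at least 20 Input fragments the ratio was 1.05 and 1.04 for the class, 1.03 and 1.04 for Olfr and 1.18 and 1.1 for Vmn1r. The 7 Vmn2r promoters of that depth had 1.56 with Santa Cruz (1.02 to 2.31) and 1.05 with Abcam (0.664 to 1.61). Santa Cruz calls fell to 0. With models whose TSS lies upstream of the coding start, an alternative chosen after seeing the data, the Abcam ratio was 1.19. A flank of 10 to 100 kb raised the promoter over its flank to 1.15 with both antibodies. Against other promoters of the same GC content the class stood at 0.800 and 0.798; this turned to 1.43 and 1.37 with CpG content as the measure, and to 1.06 and 1.02 with genome windows, also chosen after seeing the data. The cause was not tested. In 84 values, some of them given above, the change stayed within a set limit. The limit was the counting interval for a ratio and 1.5 times for a count. For the median over clusters it was the wider SD over clusters. Depth limits what can be said of single promoters.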
